A study of Rattus norvegicus with 15 samples.

Results

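The 8 genes described here are Fos, Jun, Junb, Atf3, Egr1, Egr3 and Myc, which are immediate early transcription factor genes, and Hspa1a, an inducible heat shock gene. They were chosen by symbol, and all 8 were found, as 11 probe sets among 31042 tested, in a table that named 14233 genes. Each gene is given by its probe set with the highest mean over all arrays, and each of these 8 probe sets was called present, that is told from background, on 15 of 15 arrays. Affymetrix arrays, 1 per rat, were hybridised with RNA from left inguinal mammary glands of female Lewis rats that were 3 months old and virgin at the start, with 5 rats in each of 3 groups. Pregnancy rats carried a litter to term, for 21 to 23 days, with sham capsules under the skin, and their pups were removed 4 to 6 hours after birth to prevent suckling. Hormone rats carried 2 silastic capsules for 21 days, with 100 µg of ethynyl estradiol, an estrogen, in one and 30 mg of megestrol acetate, a progestin, in the other. Control rats were neither pregnant nor treated and carried sham capsules filled with cellulose. All rats rested for about 49 days after capsule removal and were killed in metestrus, so every value describes the gland long after the exposure. The whole gland was sampled, so a lower level from fewer cells of a type cannot be told apart from less RNA per cell.

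Immediate early genes are transcribed within minutes of a growth factor, hormone, injury or stress signal, without new protein synthesis. Mitogen-activated kinases act on factors already bound to the promoter, among them serum response factor at the CArG box and CREB at the cAMP response element. Fos and Jun family proteins pair to form AP-1, Atf3 joins the same network under stress, Egr1 and Egr3 are zinc finger factors, and Myc drives cell growth genes. Hspa1a encodes an inducible Hsp70 chaperone, which heat shock factor switches on when proteins unfold. In the mammary gland, AP-1 factors and Myc are known for roles in growth of the epithelium and in involution after weaning.

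The table of RefSeq promoters used here, on the GRCr8 build, held 3 of the 8 genes, Egr1, Junb and Hspa1a, and no promoter is shown for Fos, Jun, Atf3, Egr3 and Myc. Windows of 250 bases before to 50 bases after the start were searched on both strands for the CArG box, the cAMP response element TGACGTCA and its shorter core TGACG, the AP-1 site TGANTCA, the ETS core CCGGAA, the EGR site GCGNGGGCG, the heat shock element GAANNTTC and the E box CACGTG. The stretches below show the matches in the Egr1 and Junb promoters, with capitals marking CArG boxes and TGACG cores (CGTCA on the other strand).
Egr1: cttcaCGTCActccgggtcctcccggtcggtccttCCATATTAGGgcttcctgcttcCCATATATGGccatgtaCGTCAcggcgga
Junb: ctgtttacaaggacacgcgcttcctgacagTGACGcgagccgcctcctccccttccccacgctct
The Egr1 stretch lies on the plus strand at chr18:26736938-26737023 and the Junb stretch on the plus strand at chr19:40080941-40081005. The Egr1 window held 2 CArG boxes, a motif found in 1.64% of the 33469 promoters of the table, and 2 TGACG cores. The Junb window held 1 TGACG core, which 21.2% of all promoters held, and no CArG box. The Hspa1a window held none of the 8 motifs in the spelling searched.

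Between 65.3% and 68.4% of probe sets were called present per array, and the number of arrays limits the precision of every value. Epithelial markers were present throughout, with 11 of 11 luminal and 8 of 8 basal genes called present on 15 of 15 arrays. A list of lymph node genes had 13 of 17 symbols measured, 5 of them present on all arrays and 1 on none. Its level relative to the mean of the 15 arrays ranged from −0.81 to 1.44 in pregnancy rats, from −1.20 to 0.02 in hormone rats and from −1.14 to 1.85 in controls. Control replicates 1, 4 and 5 and pregnancy replicate 3 were the 4 arrays rich in these transcripts. A list of skeletal muscle genes, 13 of 15 measured, 3 present on all arrays and 1 on none, ranged from −1.59 to 2.65, from −1.27 to 4.02 and from −2.04 to 0.66 in the same groups. Pregnancy replicates 7 and 9 and hormone replicate 4 were rich in muscle transcripts.

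None of the 8 genes passed the test in any comparison. After pregnancy 6 of 8, all but Jun and Atf3, were below the control mean, beside 45.3% of all probe sets. After hormone the same 6 were, beside 42%. Of these 6, Fos, Junb and Egr1 had differences against controls that changed sign in other settings. Hspa1a was 1.66-fold lower after pregnancy and 1.45-fold lower after hormone than in controls, Egr3 was 1.77-fold and 2.66-fold lower, and Myc 1.19-fold and 1.39-fold lower. The group means of Fos, Jun, Junb, Atf3 and Egr1 differed by at most 0.36 on the log2 scale in any comparison.

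For pregnancy minus control, 0 of 8 genes had a limma adjusted p under 0.05, beside 0.197% of all probe sets, and 2 of 8 had an unadjusted p under 0.05, beside 21.9% of all probe sets. For hormone minus control the counts were 0 of 8, beside 0.029%, and 3 of 8, beside 20.7%. For pregnancy minus hormone they were 0 of 8, beside 0.00322%, and 0 of 8, beside 9.96%. A moderated F test over the 3 groups called 0 of 8, beside 0.0322%, and 3 of 8 at an unadjusted p under 0.05, beside 21.8%. The median difference of the 8 genes was −0.15 after pregnancy and −0.14 after hormone against controls, where the medians over all probe sets were 0.02 and 0.03. After pregnancy 6 of 8 differences were below 0, as were 6 of 8 after hormone, while 45.3% and 42% of all probe sets were. For pregnancy minus hormone 3 of 8 were below 0, beside 50.7%. Both comparisons share the control rats.

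**Figure D1:**
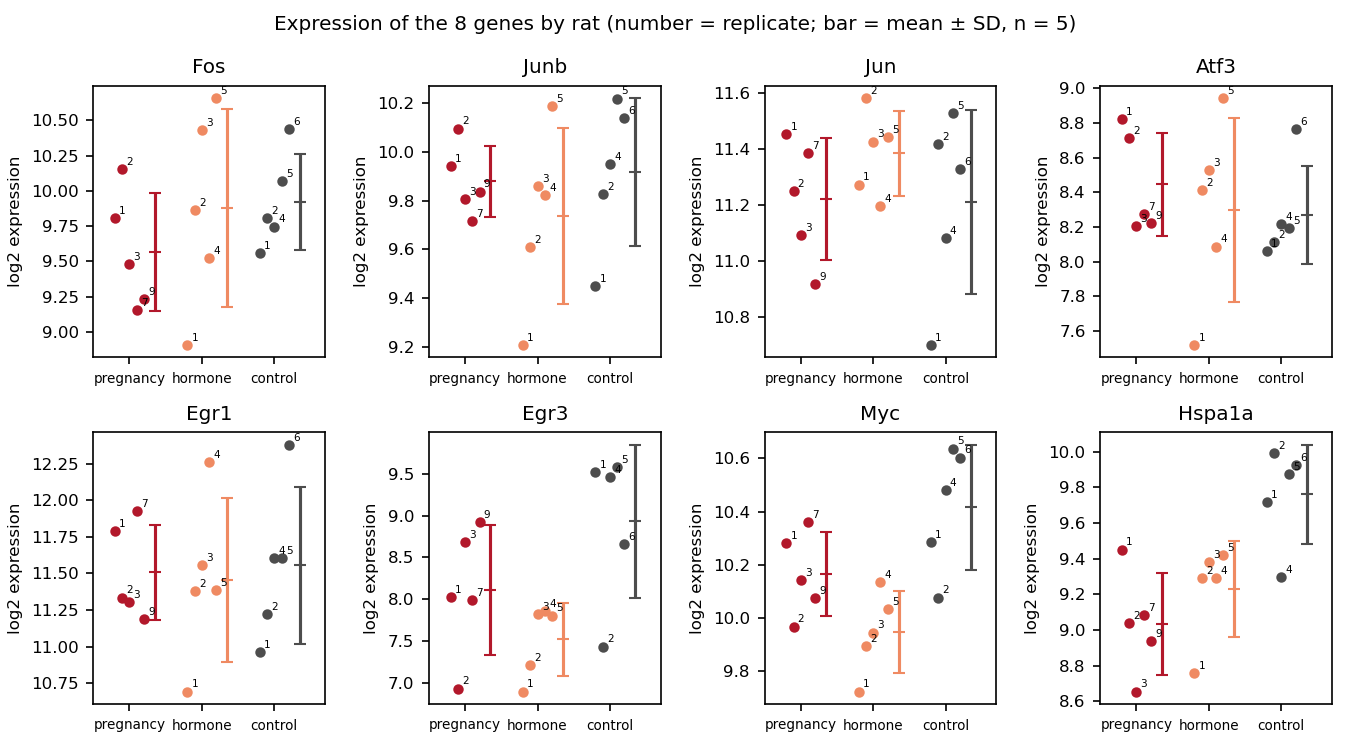
Log2 expression of the 8 genes in each rat, one panel per gene with its own vertical axis. Points are rats, numbered by replicate, in the pregnancy, hormone and control groups; the bar beside them is the mean ± SD (n = 5). Hormone replicate 1 is the lowest rat in 6 of 8 panels. Hspa1a is at 9.45 or below in all pregnancy and hormone rats, and also in control replicate 4, which is at 9.30.

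Fos encodes the inducible partner of Jun in AP-1. Its log2 expression was 9.81, 10.15, 9.48, 9.15 and 9.23 in pregnancy replicates 1, 2, 3, 7 and 9. It was 8.91, 9.86, 10.43, 9.52 and 10.66 in hormone replicates 1 to 5, against 9.56, 9.81, 9.75, 10.07 and 10.44 in control replicates 1, 2, 4, 5 and 6. The groups overlapped widely, and the lowest and the highest of the 15 rats were both in the hormone group. The means were 9.57 ± 0.42 after pregnancy, 9.88 ± 0.70 after hormone and 9.92 ± 0.34 in controls (SD, n = 5 each). The difference was −0.36 for pregnancy minus control (SE 0.29, 95% interval −0.99 to 0.27, limma adjusted p = 0.488) and −0.05 for hormone minus control (SE 0.29, interval −0.68 to 0.58, adjusted p = 0.94). Fos spanned 3.36-fold over the 15 rats, and its residual SD of 0.51 was above that of 96.7% of the 17967 probe sets present on all arrays, whose median was 0.17.

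Junb encodes a Jun family partner in AP-1 that is induced together with Fos in many cells. It was at 9.94, 10.10, 9.81, 9.72 and 9.84 in pregnancy replicates 1, 2, 3, 7 and 9. It was at 9.21, 9.61, 9.86, 9.82 and 10.19 in hormone replicates 1 to 5, against 9.45, 9.83, 9.95, 10.22 and 10.14 in control replicates 1, 2, 4, 5 and 6. The groups overlapped, with the lowest rat in the hormone group and the highest among controls. The difference was −0.04 for pregnancy minus control (SE 0.17, 95% interval −0.39 to 0.32, limma adjusted p = 0.914) and −0.18 for hormone minus control (SE 0.17, interval −0.53 to 0.18, adjusted p = 0.543).

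Jun encodes c-Jun, the core DNA-binding subunit of AP-1. By its brightest probe set it was the steadiest of the AP-1 genes here, with a span of 1.84-fold over the 15 rats. Its log2 expression ran from 10.92 over a median of 11.25 to 11.45 after pregnancy, from 11.20 over 11.43 to 11.58 after hormone, and from 10.70 over 11.33 to 11.53 in controls. The groups overlapped, and the lowest value was that of control replicate 1. The difference was 0.01 for pregnancy minus control (SE 0.14, 95% interval −0.30 to 0.32, limma adjusted p = 0.977) and 0.17 for hormone minus control (SE 0.14, interval −0.13 to 0.48, adjusted p = 0.494). The other 2 Jun probe sets followed the brightest over the 15 rats, with Pearson r of 0.86 and 0.95, and gave differences of −0.00017 and 0.19 for pregnancy minus control and 0.20 and 0.24 for hormone minus control. Neither passed in any comparison. The probe set with r of 0.95 ran from 8.56 to 9.86, a wider span than that of Junb, from 9.21 to 10.22.

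Atf3 encodes a stress-induced factor of the ATF and CREB family that binds DNA alone or with Jun proteins. It was at 8.82, 8.71, 8.20, 8.27 and 8.22 in pregnancy replicates 1, 2, 3, 7 and 9. It was at 7.52, 8.41, 8.53, 8.09 and 8.94 in hormone replicates 1 to 5, against 8.06, 8.11, 8.22, 8.19 and 8.76 in control replicates 1, 2, 4, 5 and 6. Pregnancy replicates 1 and 2, hormone replicate 5 and control replicate 6 formed the upper end, and hormone replicate 1 was the lowest. The difference was 0.18 for pregnancy minus control (SE 0.22, 95% interval −0.30 to 0.66, limma adjusted p = 0.66) and 0.03 for hormone minus control (SE 0.22, interval −0.45 to 0.51, adjusted p = 0.952).

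Egr1 encodes a zinc finger factor and responds to growth factors. Whether it does so through the CArG boxes printed above was not tested. Its log2 expression ran from 11.19 over a median of 11.34 to 11.92 after pregnancy, from 10.69 over 11.39 to 12.26 after hormone, and from 10.96 over 11.61 to 12.38 in controls. The highest rats were control replicate 6 and hormone replicate 4, and the lowest was hormone replicate 1, a span of 3.21-fold over the 15 rats. The group means lay within 0.10 of each other, with differences of −0.05 for pregnancy minus control (SE 0.28, 95% interval −0.64 to 0.55, limma adjusted p = 0.935) and −0.10 for hormone minus control (SE 0.28, interval −0.70 to 0.50, adjusted p = 0.857).

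Egr3 encodes a relative of Egr1 that is also induced by antigen receptor signals in lymphocytes, and it varied most of the 8, by 6.42-fold over the 15 rats. It was at 8.02, 6.93, 8.69, 7.99 and 8.92 in pregnancy replicates 1, 2, 3, 7 and 9. It was at 6.90, 7.21, 7.83, 7.86 and 7.81 in hormone replicates 1 to 5, against 9.52, 7.44, 9.46, 9.58 and 8.66 in control replicates 1, 2, 4, 5 and 6. Control replicates 1, 4 and 5, which were rich in lymph node transcripts, had the 3 highest values, while control replicate 2 lay below 3 of 5 hormone rats. Pregnancy replicate 3, also rich in those transcripts, was at 8.69, below pregnancy replicate 9 at 8.92 and close to control replicate 6 at 8.66. The difference was −0.82 for pregnancy minus control (SE 0.42, 95% interval −1.72 to 0.08, limma adjusted p = 0.266) and −1.41 for hormone minus control (SE 0.42, interval −2.31 to −0.51, adjusted p = 0.146). With the level of lymph node genes as a covariate the differences were −0.54 (SE 0.27, adjusted p = 0.241) and −0.65 (SE 0.31, adjusted p = 0.511). Without the 4 arrays rich in lymph node transcripts they were −0.08 (SE 0.49, adjusted p = 0.95) and −0.53 (SE 0.48, adjusted p = 0.82). That fit kept only control replicates 2 and 6 as controls, at 7.44 and 8.66, so its control mean is uncertain. It called 0.0322% and 0% of all probe sets. Leaving out control replicate 2 alone, which is among the poorest in those transcripts, gave −1.78 for hormone minus control, with an adjusted p of 0.0217, in a fit that called 6.07% of all probe sets. The second Egr3 probe set was called present on 6 of 15 arrays only and ran from 6.27 to 6.75. It followed the brighter one with r = 0.24 and gave differences of 0.13 and −0.00017, so the 2 probe sets disagreed. A probe set told from background on so few arrays is a weak check of the brighter one.

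Myc encodes a transcription factor that drives ribosome production and cell growth. It was at 10.28, 9.97, 10.14, 10.36 and 10.08 in pregnancy replicates 1, 2, 3, 7 and 9. It was at 9.72, 9.90, 9.95, 10.13 and 10.03 in hormone replicates 1 to 5, against 10.28, 10.08, 10.48, 10.64 and 10.60 in control replicates 1, 2, 4, 5 and 6. Of the hormone rats, 4 of 5 lay below all controls, and hormone replicate 4 lay above control replicate 2 only. The difference was −0.25 for pregnancy minus control (SE 0.11, 95% interval −0.49 to −0.01, limma adjusted p = 0.211), lower than the control mean in 5 of 5 rats, and −0.47 for hormone minus control (SE 0.11, interval −0.71 to −0.23, adjusted p = 0.124), also lower in 5 of 5. For hormone minus control it was −0.42 with the level of lymph node genes as a covariate (SE 0.13, adjusted p = 0.373) and −0.39 without the 4 lymph node-rich arrays (SE 0.15, adjusted p = 0.694). The covariate fit called 0.00966% of all probe sets. The fit without the 4 arrays called 0% and kept only control replicates 2 and 6 as controls. Without control replicate 2, where 6.07% of all probe sets passed, the Myc difference for hormone minus control was −0.55 with an adjusted p of 0.018. For pregnancy minus control it ran from −0.29 to −0.11 over 13 other settings, with limma adjusted p from 0.171 to 0.908. Without 1 array in turn it ran from −0.34 to −0.20, with limma adjusted p from 0.0671 to 0.368.

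Hspa1a was at 9.45, 9.04, 8.65, 9.08 and 8.94 in pregnancy replicates 1, 2, 3, 7 and 9. It was at 8.76, 9.29, 9.38, 9.29 and 9.42 in hormone replicates 1 to 5, against 9.72, 9.99, 9.30, 9.87 and 9.92 in control replicates 1, 2, 4, 5 and 6. Control replicate 4 alone of the controls lay within the range of the other groups: 4 of 5 pregnancy rats and 3 of 5 hormone rats lay below it. The means were 9.03 ± 0.29 after pregnancy, 9.23 ± 0.27 after hormone and 9.76 ± 0.28 in controls (SD, n = 5 each). The difference was −0.73 for pregnancy minus control (SE 0.16, 95% interval −1.08 to −0.38) with a limma adjusted p of 0.0697, and −0.53 for hormone minus control (SE 0.16, interval −0.88 to −0.18, adjusted p = 0.15). The pregnancy difference was −0.78 with the level of lymph node genes as a covariate (adjusted p = 0.0415), −0.83 without the 4 lymph node-rich arrays (adjusted p = 0.157), −0.71 without the 3 muscle-rich arrays (adjusted p = 0.587) and −0.67 without control replicate 2 (adjusted p = 0.0463). Leaving out the lymph node-rich arrays kept only control replicates 2 and 6 as controls. The fit with the lymph node covariate called 0.696% of all probe sets, and the fit without control replicate 2 called 4.61%. Without the lymph node-rich arrays 0.0322% were called. Without the muscle-rich arrays, which kept pregnancy replicates 1, 2 and 3, 0% were called. In the authors' deposited table the same log2 difference, −0.73, has an adjusted p of 0.053. Hspa1b encodes a nearly identical Hsp70, and hybridisation between the 2 genes was not resolved. Its probe set followed that of Hspa1a with r = 0.83 over the 15 rats and gave −0.33 for pregnancy minus control (SE 0.14, limma adjusted p = 0.179) and −0.21 for hormone minus control (SE 0.14, adjusted p = 0.376).

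Pregnancy and hormone rats were set against each other directly for each gene. The largest difference was that of Egr3, at 0.59 for pregnancy minus hormone (SE 0.42, 95% interval −0.31 to 1.49, limma adjusted p = 0.661). Myc differed by 0.22 (SE 0.11, interval −0.02 to 0.46, adjusted p = 0.535), with pregnancy rats above the hormone mean in 5 of 5. Fos differed by −0.31 (SE 0.29, interval −0.94 to 0.32) and Hspa1a by −0.19 (SE 0.16, interval −0.54 to 0.15), with adjusted p of 0.753 and 0.716. The remaining 4 genes differed by between −0.16 and 0.15. These intervals leave room for differences of up to 1.49 on the log2 scale in Egr3 but of no more than 0.46 in Myc.

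**Figure D2:**
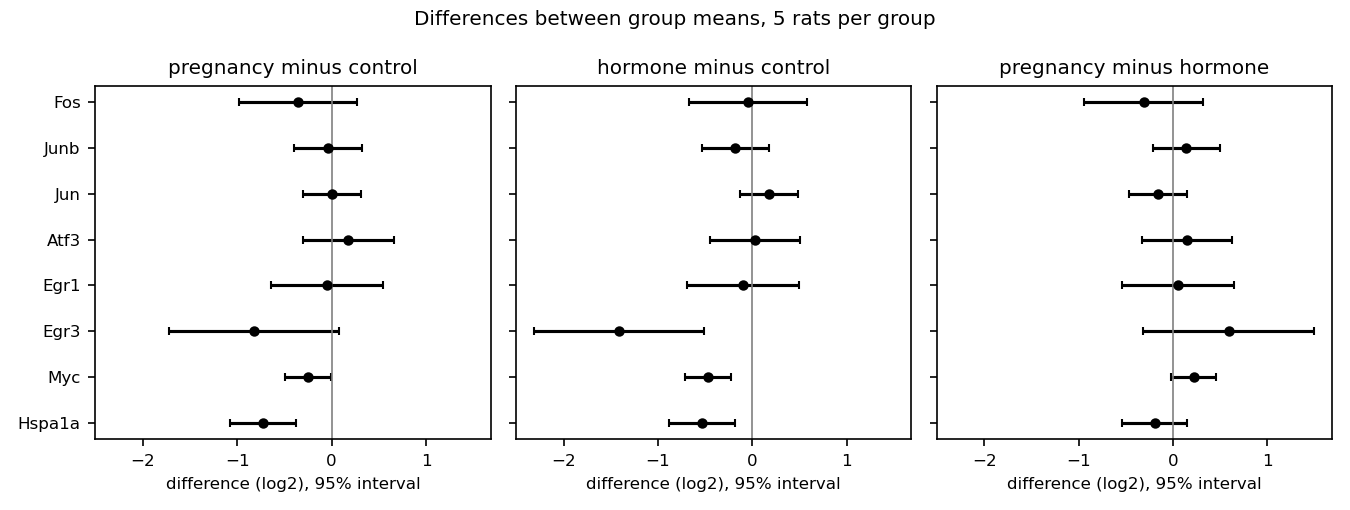
Differences between group means of log2 expression, with 95% intervals from the limma fit, in panels for each exposure against controls and for pregnancy minus hormone. Hspa1a and Myc lie below 0 with their intervals in both comparisons against controls, and Egr3 in hormone minus control; none of the adjusted p values is under 0.05.

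Several of the genes varied together from rat to rat. Over the 28 pairs of the 8 genes and the 15 rats, 4 pairs had a Pearson correlation with a Benjamini-Hochberg adjusted permutation p under 0.05. Fos and Atf3 had r = 0.79 (permutation p = 0.0006, adjusted 0.0118) and Spearman rho = 0.68 (p = 0.0072, adjusted 0.0672). Fos and Junb had r = 0.74 (permutation p = 0.00145, adjusted 0.0124) and rho = 0.74 (p = 0.00257, adjusted 0.036). Junb and Atf3 had r = 0.74 (permutation p = 0.00177, adjusted 0.0124) and rho = 0.59 (p = 0.0239, adjusted 0.134). After centring within each group these 3 pairs had r of 0.93, 0.84 and 0.78, so the relation was at least as large within groups. Without the 4 lymph node-rich arrays r was 0.82, 0.78 and 0.88, and each of the 3 passed (adjusted permutation p = 0.0172, 0.02 and 0.0172).

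Hormone replicate 1 was the lowest rat for Fos, Junb, Atf3, Egr1, Egr3 and Myc. Without it r was 0.71 for Fos and Atf3, 0.64 for Fos and Junb and 0.57 for Junb and Atf3, and none of the 28 pairs passed (adjusted p = 0.0717, 0.131 and 0.244 for these 3). Without hormone replicates 1 and 5, the 2 rats farthest from the median of Fos, r was 0.61 for Fos and Atf3 (permutation p = 0.0285) and 0.55 for Fos and Junb (p = 0.0493). Without control replicate 1 and hormone replicate 1, the 2 farthest for Junb, r was 0.49 for Junb and Atf3 (permutation p = 0.0886), so the relation no longer held without both. Without control replicate 1 alone it was 0.73 (adjusted permutation p = 0.0272). Hormone replicate 1 also had the lowest level of the basal myoepithelium list, at −0.71 against the mean of the 15. Its luminal list level, −0.438, was not the lowest: hormone replicate 2 was at −0.444 and control replicate 4 at −0.519. The part of these levels in the result was not tested.

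Egr3 and Myc formed the fourth pair, with r = 0.77 over all 15 rats (permutation p = 0.00084, adjusted 0.0118) and rho = 0.81 (p = 0.00044, adjusted 0.0123). Over the 11 rats that were not rich in lymph node transcripts r was 0.69 (adjusted permutation p = 0.103), which does not pass. Without control replicates 1 and 5, the 2 farthest for Egr3, it was 0.73 (permutation p = 0.0044). Centred within each group it was 0.55 (adjusted p = 0.175). Egr1 and Myc had r = 0.59 (permutation p = 0.0208, adjusted 0.116) and rho = 0.54 (p = 0.0391, adjusted 0.182), and did not pass. That pair passed after centring within each group, with r = 0.79 (adjusted permutation p = 0.0135), without the 4 lymph node-rich arrays, with r = 0.83 (adjusted 0.0172), and without hormone replicate 4, with r = 0.69 (adjusted 0.0316). Fos and Egr3 had r = 0.0018 (p = 0.995). Fos and Hspa1a had r = 0.54 (permutation p = 0.0369, adjusted 0.14) and rho = 0.59 (p = 0.0228, adjusted 0.134). Jun and Egr3 had r = −0.49 (permutation p = 0.0623, adjusted 0.175) and rho = −0.34 (p = 0.217, adjusted 0.358).

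**Figure D3:**
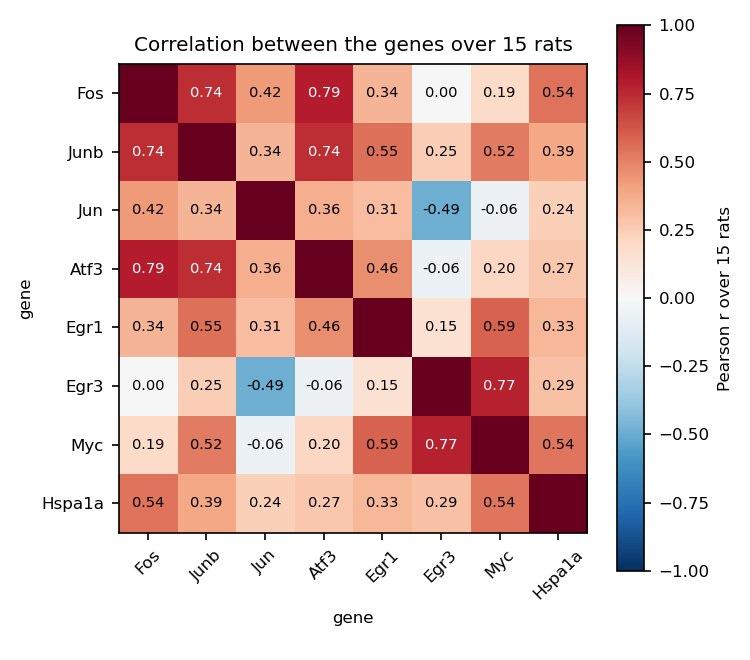
Pearson correlation over the 15 rats between each pair of the 8 genes, by colour and number. Fos, Junb and Atf3 form a block with r of 0.74 to 0.79, Egr3 pairs with Myc at 0.77, and Fos and Egr3 are at 0.00.

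**Figure D4:**
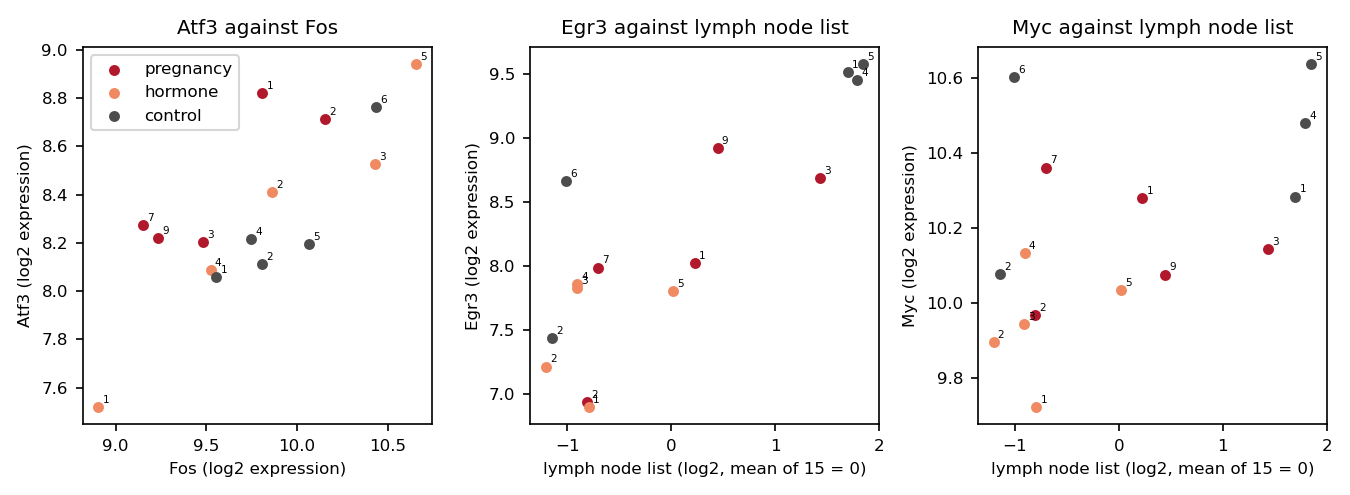
Atf3 against Fos, and Egr3 and Myc against the level of the lymph node list, all on the log2 scale; points are rats, numbered by replicate and coloured by group. Hormone replicate 1 is at the lower left of the Atf3 panel. Control replicates 1, 4 and 5 have the 3 highest levels of both Egr3 and the lymph node list. Pregnancy replicate 3, also rich in the list, has Egr3 at 8.69, below pregnancy replicate 9 at 8.92. Control replicate 6 has high Myc (10.60) with a low list level.

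Genes outside the 8 with the most similar pattern over the 15 rats were taken among 9929 genes present on all arrays, as a description. To Fos the nearest were Pkp4, a plakophilin of cell junctions, Met, the hepatocyte growth factor receptor, Vtcn1, an immune checkpoint ligand made by epithelia, Slc35a5, Cebpd, a transcription factor of involution and acute stress, and Cpne8, with Pearson r between 0.85 and 0.89. To Myc they were Notch1, C7h22orf23, Nab2, Srf, Dcaf7 and Pals2, with r between 0.89 and 0.94. Notch1 encodes a Notch receptor, Nab2 a corepressor of Egr proteins, and Srf the serum response factor that binds CArG boxes. To Hspa1a they were Stau1, Bcr, Vangl2, Pxn, Ctnnal1 and Map1b, with r between 0.84 and 0.88, none of them a chaperone gene.

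The wider pathways were described by 6 lists of 164 symbols, of which 156 genes were measured. None of the 156 passed in any of the 3 comparisons by limma. At an unadjusted p under 0.05, 22 were higher and 21 lower after pregnancy than in controls, 27.6% beside 21.9% of all probe sets. After hormone 15 were higher and 23 lower, 24.4% beside 20.7%, and for pregnancy minus hormone 13 were higher and 5 lower, 11.5% beside 9.96%. The genes named below are those with the smallest p of each list, and they did not pass.

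Of 13 measured relatives in the Fos, Jun and ATF families, 8 were higher and 5 lower after pregnancy (median 0.14, against 0.003 over all genes). Atf5, an amino acid stress factor, averaged 12.01 ± 0.17 in pregnancy rats and 11.50 ± 0.36 in controls (SD, n = 5 each), a difference of 0.50 (SE 0.16, adjusted p = 0.11), with 5 of 5 pregnancy rats above all controls. Groups that do not overlap in this direction were found for 2.49% of all probe sets. Atf6, a sensor of endoplasmic reticulum stress, was called present on 4 of 15 arrays only, with a difference of 0.48 (adjusted p = 0.105). After hormone, Batf, an AP-1 factor of lymphocytes, was at −0.26 (SE 0.11, adjusted p = 0.194) and Atf5 at 0.37 (adjusted p = 0.215).

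Among 47 other immediate early genes, 25 were higher and 22 lower after pregnancy, and again 25 and 22 after hormone. The medians were 0.01 in both, against 0.003 and 0.03 over all genes. Gadd45b, a growth arrest and stress signalling gene, averaged 8.78 ± 0.44 in pregnancy rats and 9.48 ± 0.15 in controls (SD, n = 5 each), a difference of −0.71 (SE 0.18, adjusted p = 0.0782) with 5 of 5 below all controls, as 1.74% of all probe sets were. Egr4 had no present call on any array. After hormone, Rhob, a small GTPase gene induced by growth factors, was at 0.37 (SE 0.08, adjusted p = 0.117), and Csrnp1, a nuclear factor, at −0.70 (SE 0.20, adjusted p = 0.143). Csrnp1 was between 7.72 and 8.13 in hormone rats, against 8.91, 8.98 and 8.76 in the lymph node-rich control replicates 1, 4 and 5 and 7.82 and 8.23 in control replicates 2 and 6, and the part of those transcripts was not tested. The phosphatase gene Dusp5 was at 0.29 for pregnancy minus hormone (adjusted p = 0.471) and Crem, a cAMP response factor, at −0.20 (adjusted p = 0.475).

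Of 19 upstream kinases and factors, 12 were lower after pregnancy and 14 after hormone, beside 45.3% and 42% of all probe sets. Their medians were −0.07 and −0.03, against 0.003 and 0.03 over all genes. Elk3, a partner of serum response factor, averaged 10.67 ± 0.04 in pregnancy rats and 10.95 ± 0.10 in controls (SD, n = 5 each), a difference of −0.28 (SE 0.07, adjusted p = 0.0788), with 5 of 5 below all controls, as 1.74% of all probe sets were. Nab1, an Egr corepressor, was at 0.21 (SE 0.07, adjusted p = 0.105) for pregnancy minus control and at 0.23 (adjusted p = 0.381) for pregnancy minus hormone. Elk1, another partner of serum response factor, was at 0.35 for pregnancy minus hormone (adjusted p = 0.389). After hormone, Nab2 was at −0.48 (SE 0.13) and Rps6ka1, a kinase downstream of ERK, at −0.84 (SE 0.21), with adjusted p of 0.143 and 0.132. Rps6ka1 was between 8.70 and 8.77 in hormone rats and between 8.74 and 10.14 in controls, the group that held 3 of the 4 lymph node-rich arrays. The part of those transcripts in its level was not tested.

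Of 21 genes of the Myc network, 14 were lower after pregnancy and 15 after hormone, beside 45.3% and 42% of all probe sets. Their medians were −0.06 and −0.12, against 0.003 and 0.03 over all genes. Mga, a Max partner that opposes Myc, was at −0.48 after pregnancy (SE 0.13, adjusted p = 0.0819) and at −0.44 after hormone (SE 0.13, adjusted p = 0.143). Ncl, nucleolin, was at −0.19 after pregnancy (SE 0.05, adjusted p = 0.09), and Mycl, a Myc relative, at −0.49 after hormone (SE 0.11, adjusted p = 0.113), with 5 of 5 hormone rats below all controls, as 1.31% of all probe sets were. For pregnancy minus hormone, the cyclin gene Ccnd2 was at −0.23 (adjusted p = 0.478) and Odc1, of polyamine synthesis, at 0.17 (adjusted p = 0.575).

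Of 39 other measured heat shock and chaperone genes, 20 were higher and 19 lower after pregnancy, and 22 and 17 after hormone. The medians were 0.02 and 0.01, against 0.003 and 0.03 over all genes. After pregnancy, Fkbp4, an immunophilin of steroid receptor complexes, was at 0.33 (SE 0.10, adjusted p = 0.108) and Bag3, an Hsp70 cochaperone, at −0.22 (SE 0.08, adjusted p = 0.15). After hormone, the small heat shock gene Hspb1 was at 0.40 (SE 0.15, adjusted p = 0.174) and Bag1, a nucleotide exchange factor of Hsp70, at 0.27 (SE 0.10, adjusted p = 0.182). Hsf2, a heat shock factor, was at −0.23 for pregnancy minus hormone (adjusted p = 0.435) and Fkbp4 at 0.27 (adjusted p = 0.443).

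Of 17 genes of the integrated stress and redox responses, 13 were higher and 4 lower after pregnancy, and 12 and 5 after hormone. Of all probe sets 45.3% and 42% were lower. The medians of the list were 0.17 and 0.19, against 0.003 and 0.03 over all genes. Mt1, a metallothionein, averaged 12.45 ± 0.58 in pregnancy rats and 11.44 ± 0.26 in controls (SD, n = 5 each), a difference of 1.01 (SE 0.32, adjusted p = 0.108), and 0.92 for hormone minus control (SE 0.32, adjusted p = 0.163). Xbp1, a factor of secretory cells, was at 0.38 after pregnancy (SE 0.12, adjusted p = 0.103), and Nqo1, a redox enzyme, at 0.45 after hormone (SE 0.15, adjusted p = 0.161). For pregnancy minus hormone, Ddit3, the stress factor CHOP, was at −0.29 (adjusted p = 0.446) and Cdkn1a, the p21 cell cycle inhibitor, at 0.36 (adjusted p = 0.483).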

How the data were processed

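Total RNA, 80 ng per rat, was amplified with the NuGEN Ovation V2 kit and hybridised to 1 Affymetrix array per rat. The authors deposited a log2 value, a detection p-value and a present, marginal or absent call for each probe set. The submitters' processing notes list affy, GCOS, MAS5 and RMA; what each did, its version and the genome build were not given in the sources used here. Log2 values of both deposited tables were equal (largest difference 0). Of 31099 probe sets, 57 controls were left out, and 15 per-sample columns that match no labelled sample were not used. Symbols were updated by Entrez identifier (13762 of 14239 found).

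limma 3.58.1 in R 4.3.3 fitted a mean per group to all 15 arrays (residual df 12, prior df 2.7), two-sided, with Benjamini-Hochberg adjustment over 31042 probe sets and a threshold of 0.05. Correlations used 100000 permutations, adjusted over 28 pairs. The labels name rats, not litters or array batches. The fit was tested on simulated data. Python 3.11.15, pandas 2.3.3 and numpy 2.4.6 were used. Named genes beyond the 8 followed a rule: per list and comparison, up to 4 genes past the threshold, otherwise the 2 of lowest p, and the 6 genes most similar to Fos, Myc and Hspa1a. The genes and lists were chosen with earlier results of these data known. Same-numbered rats of different groups were checked for shared deviations, with correlations between −0.32 and 0.42, so numbers were not taken as pairs. Alternatives covered scaling, variance model, array weights, a filter on present calls, tissue lists as covariates, arrays left out, the replicate number as a block and the choice of probe set.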

Additional observations from a re-analysis of the deposited data

Results flagged for a closer look

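Among 24 groups of 5 values, 8 genes in 3 groups, 2 held a rat far from the others by Dixon's test at the 95% level, where chance gives about 1 in 20. Hspa1a in hormone replicate 1 was at 8.76, with the next hormone rat at 9.29. Atf3 in control replicate 6 was at 8.76, with the next control at 8.22.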

How the results depend on the processing

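With 5 arrays per group the intervals stay wide. Signal over background was no limit for the brightest probe sets of the 8 genes, which were present on 15 of 15 arrays. It was a limit for the second Egr3 probe set, present on 6 of 15. The count of genes past the threshold, 0 of 8 in each comparison, became 1 (Hspa1a) for pregnancy minus control with the level of lymph node genes as a covariate, where 0.696% of all probe sets passed, and 2 (Egr3 and Myc) for hormone minus control under array weights, where 4.43% passed. Leaving out 1 array in turn gave 0 to 1, 0 to 2 and 0 to 0 for pregnancy and for hormone against controls and for pregnancy minus hormone, and 0 to 2 for the F test; each count above 0 came without control replicate 2, where 4.61%, 6.07% and 2.9% of all probe sets passed for pregnancy and for hormone against controls and in the F test. Over all probe sets the calls, 61, 9 and 1 in the 3 comparisons and 10 by the F test, ranged over the other alternatives from 0 to 1154, 0 to 1374, 0 to 6 and 0 to 315, and without 1 array in turn from 3 to 1430, 0 to 1884, 0 to 9 and 0 to 899. Correlated pairs, 4 of 28, numbered 2 by Spearman's rho and 0 to 5 without 1 array in turn, with 0 without hormone replicate 1.

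Small differences changed sign. For pregnancy minus control, with the replicate number as a block, Fos was at 0.11, Junb at 0.28 and Egr1 at 0.38. Only numbers 1 and 2 occur among both pregnancy and control rats. Control replicate 6 and pregnancy replicates 7 and 9 share their number with no other rat, so they add nothing to the differences in that fit. Under array weights Junb was at 0.051 and Egr1 at 0.049. Jun was at −0.038 with the lymph node covariate, −0.019 with both covariates, −0.12 without the lymph node-rich arrays and −0.021 without all 7 arrays rich in lymph node or muscle transcripts, a setting chosen after seeing the data. Leaving out the lymph node-rich arrays, alone or among the 7, kept only control replicates 2 and 6 as controls. Junb was at 0.031 without the muscle-rich arrays and 0.036 without the 7. For hormone minus control, Fos was at 0.0095 with the muscle covariate, 0.041 without the muscle-rich arrays and 0.067 with the block, and Egr1 at 0.026 under array weights and 0.14 with the block. Atf3 was at −0.0598 with the lymph node covariate, −0.048 with both, −0.14 without the lymph node-rich arrays and −0.087 without the 7. For pregnancy minus hormone, Fos was at 0.017 without the 7 and 0.042 with the block, and Hspa1a at 0.032 without the 7. The cause was not tested. Without 1 array in turn the ranges that crossed 0 were, for pregnancy minus control, −0.12 to 0.088 for Jun, −0.15 to 0.038 for Junb and −0.20 to 0.16 for Egr1. They were −0.24 to 0.20 for Fos, −0.30 to 0.11 for Egr1 and −0.13 to 0.22 for Atf3 in hormone minus control, and −0.14 to 0.25 for Egr1 and −0.046 to 0.31 for Atf3 in pregnancy minus hormone. With the block 0% of all probe sets passed in each comparison and in the F test, so the lack of calls among the 8 genes there says nothing further. The numbers are shared labels, not known pairs.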
